A study of Mus musculus with 8 samples.

Results

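This section describes 5 imprinted microRNAs that lie outside the large imprinted clusters of Dlk1-Dio3 and Sfmbt2, namely mmu-miR-335 (the Mest locus), mmu-miR-483 (Igf2), mmu-miR-675 (H19), and mmu-miR-296 and mmu-miR-298 (the Gnas locus). They were chosen by name, taking each microRNA feature equal to the name or to the name followed by an arm. This gave 7 arms from 4 of the 5 microRNAs, out of 813 microRNA features and 2403 small RNA features in all. Small RNA was sequenced in immortalized skin fibroblasts from C57BL/6 mice of wild-type genotype (WT) and from C57BL/6 mice with the mir210lox/lox genotype, which the sample titles call KO. Each genotype was kept for 24 h at 21% O2 (normoxia) or at 1% O2 (hypoxia). The 4 groups of WT normoxia, WT hypoxia, KO normoxia and KO hypoxia held 2 libraries each, numbered 1 and 2. The design asks how oxygen and the loss of miR-210, a microRNA induced by hypoxia-inducible factor, change the small RNAs of these cells. The lox label does not itself state a deletion, no agent that removed the gene is named in the sources used here, and nothing says whether a genotype is 1 line or several, so genotype and cell line cannot be told apart.

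Values are read counts that the authors normalized and rounded. They summed to between 8618630 and 12167438 per library, and microRNAs took 73.0% to 82.0% of a library. Ribosomal RNA took 5.76% of KO hypoxia number 1 and 1.69% to 2.88% of each of the other libraries. miR-210-3p held 4786 to 39011 in the WT libraries and 10 to 32 in the KO libraries, so the genotype titles and the measured microRNA go the same way in all 8. MicroRNAs listed as fibroblast and mesenchymal (miR-21, miR-22, miR-143, miR-145, miR-199a, miR-199b and miR-214) made up 52.9% to 63.7% of the microRNA counts. The part of each was not separated, so this share alone does not set the cell type. Those of epithelial cells made up at most 0.00325%, of haematopoietic cells at most 0.0394% and of endothelial cells at most 0.00207%. The labels do not state whether both libraries of a group are separate cultures, so each p-value below measures only the spread between these libraries, and that spread may be technical.

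Genomic imprinting leaves a gene active on only the maternal or only the paternal chromosome, in most cases through methylation set in the germ line. Mest and Igf2 are active on the paternal copy and H19 on the maternal copy, and a microRNA inside such a gene is made from the same copy as its host. At the Gnas locus miR-296 and miR-298 are made from the paternal chromosome, in the direction of the antisense transcript Nespas. Igf2 and Mest are active in the growing fetus, and H19 and Igf2 are largely silenced in most tissues after birth. A microRNA hairpin gives a 5p and a 3p arm, and the arm held by an Argonaute protein finds its target messenger RNAs mainly through its seed, bases 2 to 8.

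The mature sequences of the 5 arms with enough reads to test are shown 5′ to 3′ because they show that the arms have separate seeds and fall into 2 kinds by base composition. They are RefSeq sequences (GRCm38.p6), and capitals mark the seed.
miR-335-5p: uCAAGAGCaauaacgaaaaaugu
miR-335-3p: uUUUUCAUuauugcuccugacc
miR-296-5p: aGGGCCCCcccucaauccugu
miR-296-3p: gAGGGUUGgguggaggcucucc
miR-298-5p: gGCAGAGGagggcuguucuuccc
The arms of miR-335 were low in G and C (30.4% for 5p and 36.4% for 3p), whereas those of the Gnas locus held 66.7%, 68.2% and 65.2% in the order shown. No seed was shared between these arms, and none was found in another of the 556 microRNA features of the table that have a RefSeq mature sequence of the same name. In the table the sequence of each of these 5 arms, and that of miR-675-3p, runs 1 base beyond the RefSeq form at each end. No other feature of the table shared a stretch of 16 bases with any of the 7 arms.

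In GRCm38 Mir335 lies on the forward strand of chromosome 6 (30741299 to 30741396) in an intron of Mest. Mir296 (174267047 to 174267125) and Mir298 (174267504 to 174267585) lie on the reverse strand of chromosome 2, with starts 457 bases apart. In the GENCODE M21 annotation no other gene covers them, and the nearest end of the Nespas gene (Gnasas1) lies 13652 bases from Mir298 in RefSeq. Mir675 lies on the reverse strand of chromosome 7 (142577064 to 142577147) in an exon of H19, and Mir483 on the same strand (142654924 to 142654996) in an intron of Igf2. The file's own coordinates, such as chromosome 6, 30691313 to 30691337 for miR-335-5p, are not those of GRCm38, and no source used here names their build. By those coordinates the table held no other small RNA feature within 100 kb of any of the 7 arms.

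The 2 microRNAs of the Igf2 and H19 domain were scarce or not analysed. miR-675-3p, an arm of the H19 microRNA that restrains growth through targets such as Igf1r, held 2 and 2 in the WT libraries kept in normoxia and 3 and 5 in those kept in hypoxia. The KO libraries held 0 and 1, then 1 and 2. These values lie at or near the limit of 3 counts, so no fold is given. At the depth of KO normoxia number 1, its 0 leaves room for a share as high as 3.48e-05% (3 counts divided by the total, counting error only). miR-675-5p, the other H19 arm, and both arms of the Igf2 microRNA miR-483, whose 3p arm is known to act against the apoptosis gene Puma, were not analysed here. For scale, the lowest sum over the 8 libraries of any microRNA feature in the table was 8, and that of miR-675-3p was 16.

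The Mest and Gnas microRNAs were expressed at intermediate levels. By mean over the 8 libraries, in normalized counts, the order was miR-296-5p at 668.5 (rank 183 of 813 microRNA features), miR-335-3p at 612.0 (rank 187), miR-298-5p at 383.5 (rank 215), miR-335-5p at 374.5 (rank 216) and miR-296-3p at 77.0 (rank 346). miR-298-3p followed at 1.38, with 0 to 4 in a library. miR-296-5p was above miR-298-5p in 8 of 8 libraries, by 1.56 to 2.18 times. Both arms of miR-335 ranged across the levels of those 2 arms, so their places in this order do not stand out from the spread between libraries. A feature was tested when it held at least 10 in at least 2 libraries, which 1540 features and 5 of the 7 arms did.

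**Figure D1:**
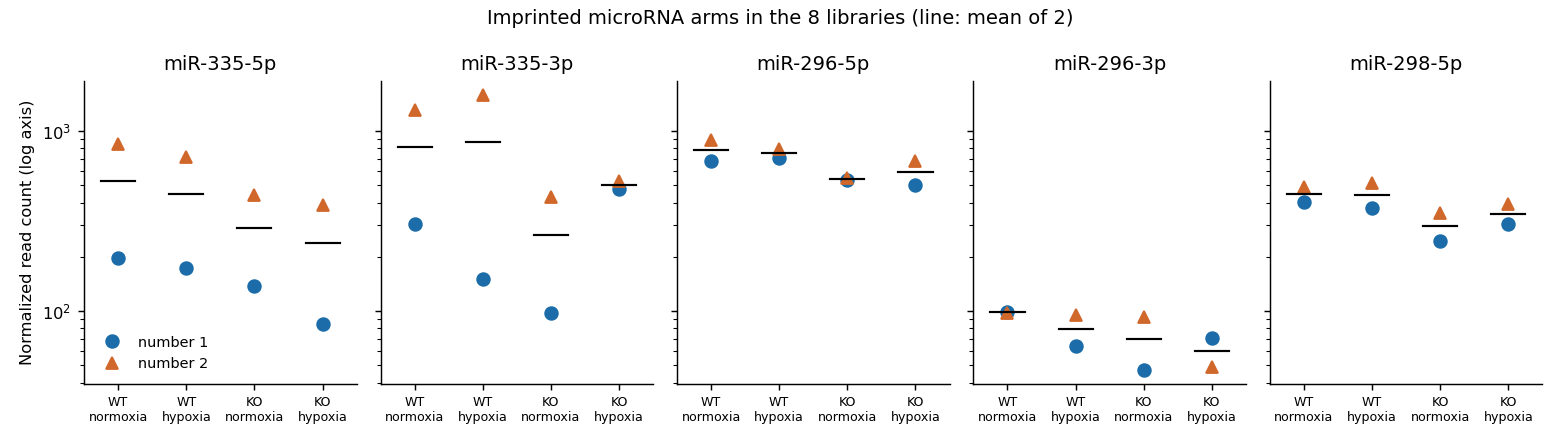
Normalized read count (log axis) of the 5 tested arms in each library, by group, with circles for number 1, triangles for number 2 and a line at the mean of 2. The number 2 libraries of miR-335-5p lie at 390 to 851 and its number 1 libraries at 85 to 198, whereas miR-296-5p stays between 504 and 890 in all 8.

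miR-335 varied most between libraries of the same group. This intronic Mest microRNA is known as a suppressor of metastasis in breast cancer cells and is abundant in mesenchymal stem cells. In WT cells miR-335-5p held 198 (number 1) and 851 (number 2) under normoxia, then 174 and 719 under hypoxia. In KO cells the same 4 libraries gave 138 and 441, then 85 and 390. Every number 2 library was above every number 1 library, with means of 600.25 ± 221 and 148.75 ± 49.1 (SD, n = 4). As a share of the library this was 0.00202% in WT normoxia number 1 (95% exact binomial interval 0.00175% to 0.00232%, counting error only) and 0.00743% in number 2 (0.00694% to 0.00795%), so the gap is wider than counting error.

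In WT cells miR-335-3p held 305 (number 1) and 1316 (number 2) under normoxia, then 151 and 1589 under hypoxia. In KO cells it held 97 in normoxia number 1, where the mean of both libraries was 264.5 ± 237 (SD, n = 2), then 478 and 528 under hypoxia. The number 2 library was again the higher in all 4 groups, though in KO hypoxia the log2 difference was only 0.14, and −0.20 on the microRNA total. Averaged over the groups, number 2 exceeded number 1 by 2.0 on the log2(value + 1) scale for miR-335-5p and by 1.94 for miR-335-3p. These were the 6th and 8th largest such differences of 1540 features, whose median was 0.0070. Number 2 was above number 1 by over 2-fold in the mean of the 4 groups in 3.18% of features. On the microRNA total of each library, a scaling chosen after seeing the data, the differences were 1.69 and 1.64 and the places among 1540 were unchanged, against a median of −0.30. The labels do not say what the numbers stand for.

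The Gnas arms did not share this split. Their mean differences between number 2 and number 1 were 0.25 for miR-296-5p, 0.40 for miR-298-5p and 0.25 for miR-296-3p, and 463, 310 and 468 of the 1540 features had a difference at least as large. Number 2 was above number 1 in each of the 4 groups for 4 of the 5 arms, the exception being miR-296-3p, where 16.0% of all features showed this. On the microRNA total it held for 2 of the 5, miR-335-5p and miR-298-5p, against 6.95% of all features. The histogram of these differences sets the pair of miR-335 arms in its far right tail.

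**Figure D2:**
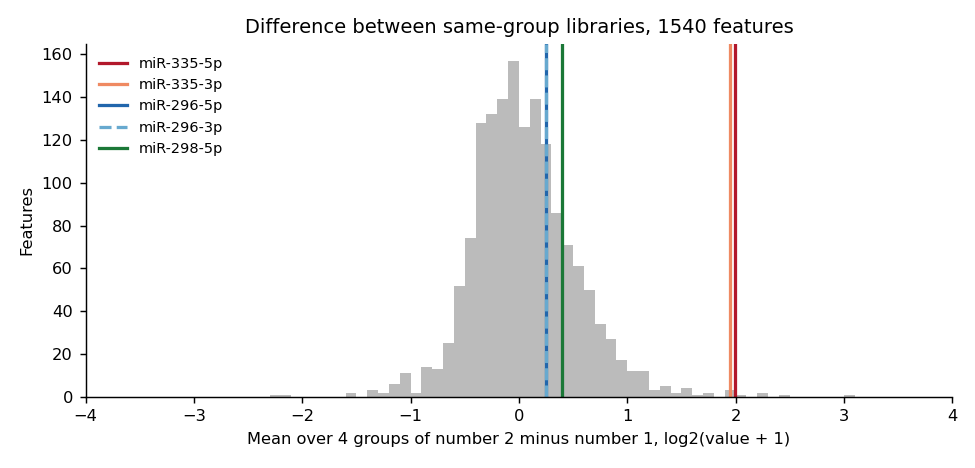
Histogram of the mean over the 4 groups of number 2 minus number 1, in log2(value + 1), for 1540 features, with a line at each of the 5 arms. The lines of miR-335-5p (2.0) and miR-335-3p (1.94) stand far from the median of 0.0070, and those of the Gnas arms (0.25, 0.40 and 0.25) lie within the bulk, with miR-296-5p and miR-296-3p on top of each other.

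Hypoxia did not change any of the 5 arms past the test in either genotype. limma called 0 of 5 arms in WT and 0 of 5 in KO, where 0% of the 1540 features were called in each. At an unadjusted p under 0.05 the arms numbered 0 of 5 in both, against 1.30% of features in WT and 5.39% in KO. The WT level of miR-210-3p was 4786 and 8676 in normoxia and 36738 and 39011 in hypoxia, and neither miR-210-3p (limma adjusted p = 0.332) nor miR-210-5p (0.235) passed this test over all features. Averaged over both genotypes, hypoxia again gave 0 of 5 arms past the adjusted or the unadjusted threshold (0% and 3.57% of features), and 0 of 5 arms had hypoxia and normoxia libraries with no overlap (0.714% of features lower and 0.519% higher).

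For the Gnas microRNAs the differences between hypoxia and normoxia were within the spread between libraries. miR-296-5p, known to raise growth factor receptor levels in endothelial cells by lowering Hgs, held 684 and 890 in WT cells under normoxia, against 710 and 796 under hypoxia. Both hypoxia values lay between the normoxia values, and the log2 difference was −0.05 (SE 0.28, 95% interval −0.69 to 0.58, limma adjusted p = 1). In KO its values were 535 and 545 in normoxia against 504 and 684 in hypoxia, a difference of 0.12 (SE 0.28, interval −0.51 to 0.75, limma adjusted p = 0.999), which is −0.024 when scaled to the microRNA total.

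miR-298-5p, the neighbour of miR-296 on the same strand, held 405 and 488 in WT cells under normoxia, against 375 and 511 under hypoxia. The 2 groups overlapped, with a log2 difference of −0.02 (SE 0.31, interval −0.72 to 0.68). Its KO values of 245 and 350 in normoxia and 303 and 391 in hypoxia overlapped too, and the difference was 0.23 (SE 0.31, interval −0.47 to 0.93). miR-296-3p, the minor arm, held 99 and 98 in WT cells under normoxia, against 64 and 95 under hypoxia, the only arm whose WT groups did not overlap. Such a gap downward was found in 11.4% of features, and the log2 difference was −0.33 (SE 0.41, limma adjusted p = 1).

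For miR-335 no difference with oxygen passed the test. miR-335-5p had a log2 difference of −0.21 (SE 0.95, interval −2.34 to 1.91) in WT and −0.43 (SE 0.95, interval −2.56 to 1.69) in KO. Between libraries of the same number, which the labels do not give as a pairing, the differences were −0.19 and −0.24 in WT and −0.69 and −0.18 in KO. How many of all features kept the same sign throughout was not counted. miR-335-3p had −0.37 (SE 1.06) in WT, with −1.01 and 0.27 by number, and 1.29 (SE 1.06) in KO, with 2.29 and 0.29. Its KO hypoxia libraries were both above its KO normoxia libraries, as in 15.8% of features, and without KO normoxia number 1 the difference was 0.22. A fit with the replicate number as a block gave miR-335-3p an unadjusted limma p of 0.046 in KO (adjusted p = 0.483).

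The response to hypoxia did not differ between genotypes past the test for any of the 5 arms (limma interaction, KO change minus WT change, 0 of 5, where 0% of features were called and 2.40% had an unadjusted p under 0.05, again 0 of 5 arms). The interaction was 0.17 (SE 0.40) for miR-296-5p, 0.25 (SE 0.44) for miR-298-5p, 0.17 (SE 0.58) for miR-296-3p, −0.22 (SE 1.34) for miR-335-5p and 1.66 (SE 1.5) for miR-335-3p. Of these, miR-335-3p depends on single libraries, since its interaction was −0.036 without WT hypoxia number 1, 0.59 without KO normoxia number 1, 0.61 without WT normoxia number 2 and 3.35 without WT hypoxia number 2.

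**Figure D3:**
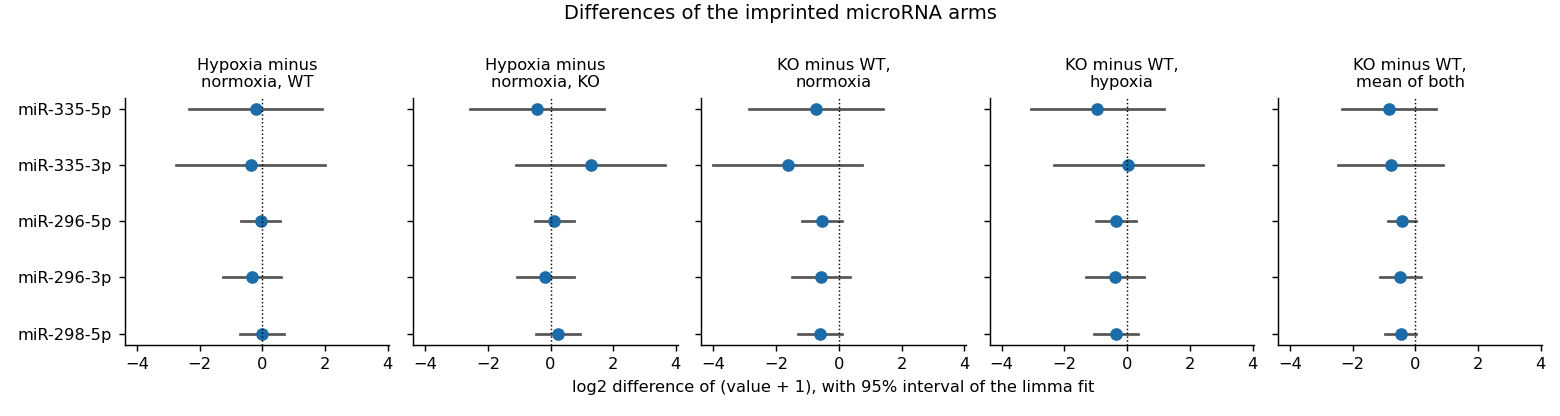
log2 difference of (value + 1) for the 5 arms (points) with the 95% interval of the limma fit (lines) in 4 pairwise comparisons and in the mean difference between genotypes. The intervals of all 25 points cross 0, and those of miR-335 are the widest, as for miR-335-5p with −2.34 to 1.91 in WT.

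In normoxia the Gnas microRNAs had lower means in KO than in WT cells, by amounts that did not pass the test. miR-296-5p went from 684 and 890 in WT to 535 and 545 in KO, a log2 difference of −0.53 (SE 0.28, limma adjusted p = 0.461). miR-298-5p went from 405 and 488 to 245 and 350, a difference of −0.60 (SE 0.31, limma adjusted p = 0.444). miR-296-3p went from 99 and 98 to 47 and 93, a difference of −0.57 (SE 0.41, limma adjusted p = 0.604) that was −0.082 without KO normoxia number 1 and −1.05 without KO normoxia number 2. For these 3 of the 5 arms the deposited KO values lay below the WT values with no overlap, as they did in 20.0% of features. As shares of the library total the groups of miR-296-3p overlapped (0.00101% and 0.000856% in WT, 0.000545% and 0.000901% in KO).

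In hypoxia the means of these arms were again lower in KO, and again none passed. miR-296-5p held 710 and 796 in WT and 504 and 684 in KO, a log2 difference of −0.36 (SE 0.28, limma adjusted p = 0.912). On the deposited values it was the only 1 of the 5 arms whose groups did not overlap, against 16.6% of features lower in that way. miR-298-5p held 375 and 511 against 303 and 391, a difference of −0.35 (SE 0.31), and miR-296-3p held 64 and 95 against 71 and 49, a difference of −0.40 (SE 0.41). As shares of the library total the miR-298-5p groups did not overlap either (0.00378% and 0.0042% in WT, 0.00314% and 0.00351% in KO). How many of all features separate in hypoxia on that scaling was not counted. Called at an adjusted p under 0.05 were 0 of 5 arms in normoxia and 0 of 5 in hypoxia, against 0.0649% and 0.130% of features. At an unadjusted p under 0.05 they were also 0 of 5 in each, against 13.4% and 9.03%.

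miR-335-5p was lower in KO than in WT between libraries of the same number in 4 of 4 comparisons, by −0.52 and −0.95 in normoxia and −1.02 and −0.88 in hypoxia. How many of all features were lower in 4 of 4 was not counted. The groups of miR-335-5p overlapped, and the log2 differences of −0.73 (SE 0.95, limma adjusted p = 0.806) and −0.95 (SE 0.95, limma adjusted p = 0.967) did not pass. Without WT normoxia number 2 the first became 0.32, and without KO hypoxia number 1 the second became 0.14. miR-335-3p was lower in KO normoxia by −1.62 (SE 1.06, limma adjusted p = 0.544), with −1.64 and −1.60 by number. This difference was −0.55 without KO normoxia number 1, −0.57 without WT normoxia number 2, −2.68 without WT normoxia number 1 and −2.70 without KO normoxia number 2. In hypoxia its difference was 0.03 (SE 1.06), with 1.66 and −1.59 by number, so here the 2 KO libraries stood on opposite sides of their WT counterparts.

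Over both oxygen levels together, the KO mean was below the WT mean for 5 of 5 arms, where 56.8% of the 1540 features were lower. Among the 579 tested microRNA features 385 were lower. The arms are not independent, since miR-335 and miR-296 each give both of theirs. In addition, miR-296 and miR-298 lie on the same strand with starts 457 bases apart, and their 5p arms correlated with r = 0.886. miR-296-5p ranged from 684 to 890 in the 4 WT libraries (mean 770 ± 93.2, SD) and from 504 to 684 in the 4 KO libraries (567 ± 79.9), so the lowest WT and the highest KO library were equal. Its log2 difference was −0.44 (SE 0.20, interval −0.89 to 0.0038, limma adjusted p = 0.285). miR-298-5p ranged from 375 to 511 in WT (444.75 ± 65.1) and from 245 to 391 in KO (322.25 ± 62.8), with a difference of −0.47 (SE 0.22, interval −0.97 to 0.023, limma adjusted p = 0.320). miR-296-3p had −0.48 (SE 0.29), miR-335-5p −0.84 (SE 0.67) and miR-335-3p −0.79 (SE 0.75), the last turning to 0.052 without WT hypoxia number 2.

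None of the 5 arms passed here, where 0.130% of features did (limma). With the replicate number as a block, which the labels do not give as a pairing, miR-335-5p passed (−0.84, limma adjusted p = 0.0305), and the features called rose from 2 to 91. At an unadjusted p under 0.05 there were 0 of 5 arms, against 17.8% of features. On the deposited values 0 of 5 arms had KO and WT libraries with no overlap, against 3.51% of features lower and 8.38% higher in that way. As shares of the library total, miR-296-5p did not overlap (0.00654% to 0.00777% in WT, 0.00522% to 0.00621% in KO). Nor did miR-298-5p (0.00378% to 0.00426% in WT, 0.00284% to 0.00351% in KO). How many of all features separate on that scaling was not counted. Scaling to the microRNA total moved the median difference of all features from −0.058 to 0.13 and made the differences of the arms smaller, at −0.25 for miR-296-5p, −0.28 for miR-298-5p, −0.29 for miR-296-3p, −0.65 for miR-335-5p and −0.60 for miR-335-3p. The 5 arms were thus lower in KO under this scaling too, and also with TMM factors (−0.38 to −0.78) and after quantile normalization (−0.42 to −0.88).

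Imprinted microRNAs of the other domains did not all lie on that side. The median log2 difference between KO and WT over both oxygen levels was −0.48 for the 5 arms. It was 1.07 for 79 tested arms listed for Dlk1-Dio3, a maternally expressed cluster (78 higher, 1 lower). For 57 tested arms of the microRNA families listed for the cluster in Sfmbt2, a paternally expressed gene, it was −0.63 (1 higher, 56 lower). Both lists were taken by microRNA number alone, with no check of position, so some arms may lie outside these clusters. It was −0.17 for all 579 microRNA features tested and −0.058 for all 1540 features. In each of these 2 lists 0 arms passed in either direction over all features (limma). The lists were chosen with earlier results of these data known, and no test compared them with the 5 arms.

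The 2 Gnas hairpins gave a steady excess of the 5p arm. The 5p arm made up 85.4% to 93.3% of miR-296 and 98.9% to 100% of miR-298 in a library. The share of miR-296 was 89.6% ± 3.66 in KO and 89.6% ± 1.79 in WT (SD, 4 libraries each, exact two-sided permutation test, p = 0.971, adjusted p = 0.971 over 6 tests), and 90.5% ± 2.49 in hypoxia against 88.7% ± 2.87 in normoxia (exact permutation p = 0.400, adjusted p = 0.800). For miR-298 the exact permutation p was 0.543 by genotype and 0.114 by oxygen (adjusted p = 0.814 and 0.686). The 3p arm of miR-298 held only 0 to 4 in a library, so differences in its share turn on a few counts. The smallest p that 4 libraries against 4 allow is 0.0286.

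In miR-335 both arms were used, and their balance shifted from library to library. Its hairpin is shown from the RefSeq sequence (GRCm38.p6, chromosome 6, forward strand) because the 2 arms, in capitals, lie on either side of a short loop and were read in changing proportions.
Mir335: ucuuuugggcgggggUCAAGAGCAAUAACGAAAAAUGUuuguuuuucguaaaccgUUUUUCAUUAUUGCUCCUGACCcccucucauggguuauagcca
The 5p arm made up 39.4% and 39.3% of miR-335 in WT cells under normoxia (numbers 1 and 2) and 53.5% and 31.2% under hypoxia. In KO cells it made up 58.7% and 50.5%, then 15.1% and 42.5%. KO hypoxia number 1 stood apart, with 85 reads of 5p to 478 of 3p (95% exact binomial interval of the share 12.2% to 18.3%, counting error only).

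The miR-335 share did not differ with genotype (41.7% ± 18.9 in KO, 40.9% ± 9.27 in WT, exact permutation p = 0.886, adjusted p = 0.971) or with oxygen (35.6% ± 16.4 in hypoxia, 47.0% ± 9.42 in normoxia, exact permutation p = 0.286, adjusted p = 0.800) beyond the spread between libraries. The direction by genotype was not stable, since on the log2 ratio of the arms it was −0.048. In KO hypoxia number 1 the log2 ratio of 5p to 3p lay −2.04 from the median of the other 7 libraries, and of 103 hairpins with at least 100 reads of both arms together in every library and a mean of at least 50 for each arm, 1 was that far from its own median in this library, miR-335 itself. This comparison was chosen after the values were seen. The same library had the highest share of ribosomal RNA (5.76%), whose part in the arm balance was not tested.

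**Figure D4:**
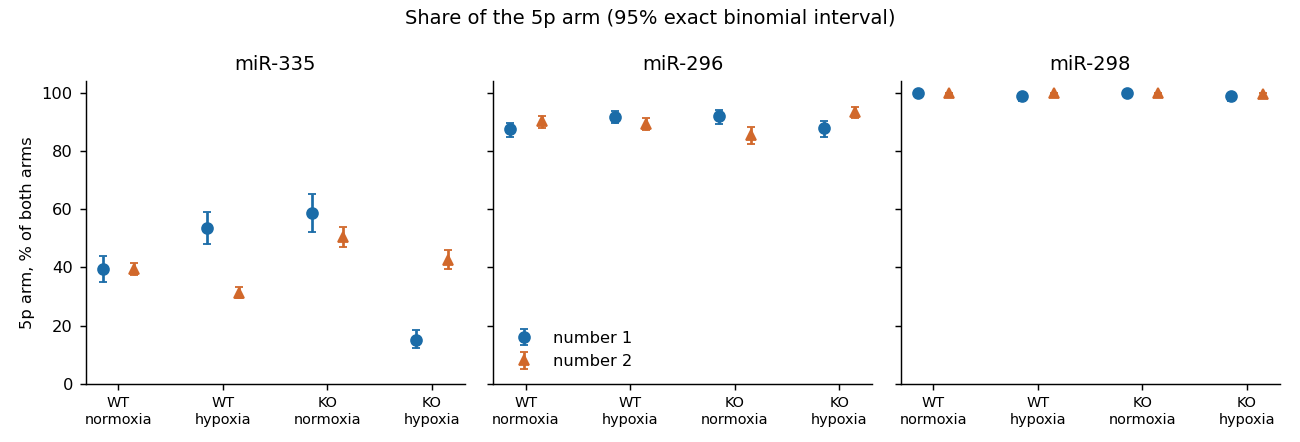
Share of the 5p arm in the reads of both arms, in percent, for miR-335, miR-296 and miR-298 by group, with circles for number 1, triangles for number 2 and bars for the 95% exact binomial interval. miR-296 and miR-298 stay above 85% in every library, whereas miR-335 ranges from 15.1% to 58.7%.

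Some microRNAs outside these hairpins followed the same course over the 8 libraries. For each arm the 3 microRNA features with the highest Pearson r in log2(value + 1) are named as a description, with no test, since all points share their libraries and scaling. Closest to miR-335-5p were miR-152-3p (r = 0.986), miR-328-3p (0.976) and miR-378-3p (0.974). The first of these held 348 to 503 in the number 1 libraries and 638 to 896 in the number 2 libraries, a narrower split than that of miR-335-5p. Closest to miR-335-3p were miR-351-5p (0.982), miR-9-3p (0.956) and miR-199b-5p (0.951). The 2 arms of miR-335 had r = 0.744 with each other. The features named for each were picked as the highest of 577 compared, so the lower r of the arms is no contrast with them.

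Closest to miR-296-5p were miR-34a-5p (r = 0.955), miR-1839-3p (0.954) and miR-34c-5p (0.944), where miR-34a and miR-34c are targets of p53. Closest to miR-298-5p were miR-874-3p (0.967), miR-143-5p (0.933) and again miR-34c-5p (0.932). The 2 major Gnas arms correlated with each other with r = 0.886 over the 8 libraries. Closest to miR-296-3p were miR-671-5p (0.960), miR-652-5p (0.949) and miR-192-3p (0.916), and its r with miR-296-5p from the same hairpin was 0.406.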

How the data were processed

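Small RNA libraries of 8 samples (4 groups of 2) were analysed. Per the labels, RNA came from a miRNeasy kit and libraries from a NEBNext small RNA set for SOLiD. The deposited values are the authors' normalized read count, a score in whole numbers. No source used here names the aligner, the build, the scaling or the handling of multiply matching reads. Columns were matched to samples by title.

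limma 3.58.1 (R 4.3.3, intensity trend) was fitted to log2(value + 1) of the 1540 features with at least 10 in at least 2 libraries, with 4 group means, 4 residual and 5.64 prior degrees of freedom and no block. Benjamini-Hochberg adjustment ran over all of them in each of 7 contrasts (threshold 0.05). Fold changes are on this scale, which understates low features. Arm shares were tested by exact permutation (scipy 1.17.1) for 3 hairpins and 2 factors. The fit was tested on simulated data in the mean genotype contrast alone. Those data held no difference by replicate number, so they do not cover arms that split by it, such as miR-335. Intervals take the normalized values for reads, so they hold counting error alone.

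Named features were all arms of the 5 microRNAs, miR-210, the 3 features most like each arm and neighbours within 100 kb. miR-483 and miR-675-5p were not analysed here. The microRNAs and lists were chosen with earlier results of these data known. Alternatives were a pseudocount of 8 or 0.5, keeping all features or those averaging at least 50, quantile normalization, TMM factors, the microRNA total, microRNAs alone, no trend, the replicate number as a block, the groups of a contrast alone and leaving out each library.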

Additional observations from a re-analysis of the deposited data

How the results depend on the processing

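The count of 0 of 5 arms held in all 7 contrasts under every alternative run except the replicate block. With the number as a replicate block 1 arm passed in the mean genotype contrast, miR-335-5p (−0.84, limma adjusted p = 0.0305, against 0.644 without the block and 0.0305 to 0.934 over its 18 alternatives), and features called rose from 2 to 91. They were 16 with TMM factors, 85 on the microRNA total, 29 without WT hypoxia number 2 and 4 without KO hypoxia number 2. For hypoxia in WT the 0 features called became 1 with a pseudocount of 8 or a mean of at least 50 and 8 with the block, for mean hypoxia 0 became 3 with the block, and for KO minus WT in normoxia 1 became 2 with no trend or without WT hypoxia number 2. Deviations by number correlated between groups with r from 0.15 to 0.55, but there are only 2 numbers and the labels do not say what they share, so the samples were not paired, a choice made with earlier calls under both fits known. The cause of these changes was not tested.

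Signs turned for miR-296-5p on the microRNA total (KO hypoxia −0.024, mean hypoxia −0.069), for miR-335-3p after quantile normalization (KO minus WT in hypoxia −0.0030), and for the genotype difference in arm share on the log2 ratio (miR-335 −0.048, miR-296 0.039).

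Leaving out a library, ranges that cross 0 follow. For hypoxia in WT they were −0.24 to 0.14 (miR-296-5p), −0.24 to 0.20 (miR-298-5p), −1.26 to 0.83 (miR-335-5p) and −2.06 to 1.32 (miR-335-3p). For hypoxia in KO they were −0.65 to 0.32 (miR-296-3p), −0.099 to 0.34 (miR-296-5p), −0.024 to 0.49 (miR-298-5p) and −1.53 to 0.66 (miR-335-5p). For KO minus WT in normoxia miR-335-5p had −1.78 to 0.32. In hypoxia it had −2.05 to 0.14 and miR-335-3p −1.66 to 1.73. For the interaction they were −0.31 to 0.65 (miR-296-3p), −0.046 to 0.39 (miR-296-5p), −0.0018 to 0.51 (miR-298-5p), −0.036 to 3.35 (miR-335-3p) and −1.31 to 0.87 (miR-335-5p). For mean hypoxia they were −0.076 to 0.14 (miR-296-5p), −0.023 to 0.23 (miR-298-5p), −0.39 to 1.31 (miR-335-3p) and −0.87 to 0.22 (miR-335-5p). For mean genotype miR-335-3p had −1.64 to 0.052. Ranges that kept their sign but moved over 1.5 times include −0.61 to −0.052 (hypoxia in WT), −0.68 to −0.12 (KO minus WT in hypoxia) and −0.49 to −0.0055 (mean hypoxia) for miR-296-3p, 0.22 to 2.36 for miR-335-3p (hypoxia in KO), and −1.39 to −0.30 for miR-335-5p (mean genotype). For the genotype difference in arm share, in percentage points, they were −1.29 to 1.34 (miR-296), −0.094 to 0.34 (miR-298) and −4.80 to 9.74 (miR-335).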

Other observations

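The features that split most strongly between numbers 1 and 2 included other microRNAs than miR-335. They were picked after their values were seen and carry no test. miR-146b-5p, an inhibitor of inflammatory signalling, held 7718, 12858, 6668 and 6928 in the number 1 libraries and 43476, 52077, 41225 and 43003 in the number 2 libraries, the 2nd largest mean difference of 1540 features (2.44 on the log2 scale). miR-344d-3p held 6, 8, 7 and 8 in the number 1 libraries and 26, 34, 46 and 52 in the number 2 libraries (3rd, 2.25), and miR-344b-3p held 14, 11, 9 and 17 against 39, 41, 54 and 78 (7th, 1.95).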
